A study of Mus musculus with 9 samples.

Results

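The 76 genes for mitochondrial ribosomal proteins in mouse CD8 T cells are the rows of the deposited expression table whose symbol is Mrpl or Mrps followed by a digit. They are 76 of 23936 genes with a symbol, 47 named for the large ribosomal subunit (Mrpl) and 29 for the small subunit (Mrps). Mitochondrial ribosomes translate the few messages encoded by mitochondrial DNA, which code for membrane proteins of the respiratory chain and the ATP synthase. All protein components of these ribosomes are encoded in the nucleus, made in the cytosol and imported, and they are assembled on ribosomal RNA that the mitochondrion transcribes itself. Some have a counterpart in bacterial ribosomes and others are found only in mitochondria. T cells that leave the resting state are known to build up mitochondrial mass and mitochondrial translation.

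Bulk RNA sequencing covered 3 groups of 3 libraries of OT-I cells, CD8 T cells with a transgenic receptor for an ovalbumin peptide, a property that all 3 groups share. MLN-primed cells came from the mesenteric lymph node (titles add "oral"), spleen-primed cells from the spleen (titles add "iv"), and naive cells from the spleen. Organ and title word change together between the primed groups and cannot be told apart. MLN-primed and naive cells also differ in organ, so organ and priming cannot be told apart in that comparison. Spleen-primed and naive cells share the organ. No source used here gives the interval after priming or the age of the mice. By its title, the study asks about retinoic acid signals in priming, and the labels give the tissue and the priming site. Separate animals are not named in the labels, and p-values therefore measure only how far libraries of a group spread, which may be technical.

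Values are FPKM, a measure of RNA fragments per transcript length relative to all fragments mapped, which is meant to make levels comparable between genes. Read numbers are unknown. Totals were 613322 to 720410 FPKM and 9469 to 9667 genes reached 1 FPKM in a library. The CD8 T cell markers Cd8a, Cd8b1, Cd3e, Cd3d and Cd3g summed to 1377 to 1458 FPKM in MLN-primed, 1980 to 2040 in spleen-primed and 2894 to 3203 in naive libraries. Libraries also differed in how values ran with transcript length: the slope (log2 units per doubling of length) was lowest in MLN-primed 1, at -0.09, and highest in spleen-primed 3, at 0.08. All 76 genes passed the filter, 1 FPKM in 3 or more libraries, and entered the fit, limma on log2(FPKM + 1) over 10185 genes, in which a gene passed at a Benjamini-Hochberg adjusted p of 0.05.

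Promoter sequence is shown for 6 of these genes, because the genes lie on 17 chromosomes and share no locus, and because their promoters are known targets of nuclear factors that act on mitochondrial genes. RefSeq promoters on GRCm38.p6, from 250 bases before to 50 bases after a transcript start, matched 67 of the 76 genes with 73 windows. The 6 lines give the 100 bases before the start, 5′ to 3′ on the strand of the gene. Capitals mark the core motifs of NRF1 (GCGCATGC), of the ETS factor GABP (CCGGAAGT) and of YY1 (AAGATGGC), on either strand. Mrpl27 and Mrps22 had the largest differences from naive in their subunits, and Mrps27 was among the largest between the primed groups. Mrps18b, Mrps5, Mrpl12 and Mrps6 differed more than Mrps27 between the primed groups. They held none of these cores in their 100 bases and are not shown. Mrpl32 held 4 NRF1 matches, of which 2 overlap, and Mrpl36 held a YY1 match. Mrpl30 was lower in primed cells and held none of these cores in the bases shown. Most genes that were higher in primed cells, such as Mrpl18 and Mrps10, also held none there. The bases shown for Mrpl30 do hold the looser NRF1 letters GCGCNTGC and the shorter ETS letters CCGGAA. The windows are chr11:94653691-94653790 (+) for Mrpl27, chr9:98601680-98601779 (-) for Mrps22, chr13:99344686-99344785 (+) for Mrps27, chr13:14613038-14613137 (-) for Mrpl32, chr13:73330909-73331008 (+) for Mrpl36 and chr1:37890377-37890476 (+) for Mrpl30.
Mrpl27: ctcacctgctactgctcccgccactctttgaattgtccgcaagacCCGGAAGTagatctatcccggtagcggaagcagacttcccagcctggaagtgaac
Mrps22: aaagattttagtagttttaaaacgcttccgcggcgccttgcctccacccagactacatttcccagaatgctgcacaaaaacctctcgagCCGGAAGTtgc
Mrps27: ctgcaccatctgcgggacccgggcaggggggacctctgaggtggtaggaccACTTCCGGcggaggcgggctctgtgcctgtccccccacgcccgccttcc
Mrpl32: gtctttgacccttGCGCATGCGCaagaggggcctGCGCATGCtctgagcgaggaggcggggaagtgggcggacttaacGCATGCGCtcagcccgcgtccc
Mrpl36: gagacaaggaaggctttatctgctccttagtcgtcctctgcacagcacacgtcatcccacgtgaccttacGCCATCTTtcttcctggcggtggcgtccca
Mrpl30: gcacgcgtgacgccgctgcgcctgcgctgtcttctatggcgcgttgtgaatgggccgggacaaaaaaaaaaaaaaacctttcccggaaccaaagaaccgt

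Over the whole 300-base windows and both strands, the shorter ETS letters CCGGAA, which lie within CCGGAAGT, stood in 56.2% of the 73 windows, against 30.4% of 9803 windows of tested genes and 14.9% of all 32851 windows. CCGGAAGT stood in 16.4%, against 9.13% of windows of tested genes and 3.89% of all windows. The YY1 letters AAGATGGC stood in 16.4%, against 5.0% and 2.75%. The NRF1 core GCGCATGC stood in 11.0%, against 5.8% and 2.71%, and the looser GCGCNTGC, which includes it, in 28.8%, against 19.7% and 9.61%. The E-box CACGTG, a MYC and MAX motif, stood in 9.59%, against 10.5% and 7.15%. GCGCATGC stood in the windows of 7 of 41 large-subunit and 1 of 26 small-subunit genes, and AAGATGGC in those of 6 of 41 and 6 of 26. A match is a description of letters, with no test of binding.

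In each group the genes spanned a wide range of levels, and the ranges of the large and the small subunit overlapped. The mean level ran from 7.44 to 248.7 FPKM for the large subunit in MLN-primed cells, from 6.29 to 296.6 in spleen-primed and from 3.22 to 129.7 in naive cells. For the small subunit it ran from 12.8 to 187.7 FPKM in MLN-primed, from 11.6 to 206.6 in spleen-primed and from 9.49 to 112.6 in naive cells. The median level of the large-subunit genes was 56.03 ± 3.69 FPKM in MLN-primed, 45.8 ± 3.73 in spleen-primed and 24.0 ± 0.269 in naive libraries (mean of the library medians ± SD, n = 3 each). That of the small-subunit genes was 52.6 ± 2.51, 35.1 ± 0.240 and 25.6 ± 0.634 FPKM in MLN-primed, spleen-primed and naive libraries. The small-subunit median was thus above the large-subunit one in naive libraries and below it in both primed groups, most clearly in spleen-primed libraries. The ratio of the large-subunit to the small-subunit median was 1.065 ± 0.045 in MLN-primed, 1.305 ± 0.098 in spleen-primed and 0.935 ± 0.017 in naive libraries. The median log2 difference from naive was nevertheless not larger for the large subunit. It was 1.09 for the large and 1.10 for the small subunit in MLN-primed cells, and 0.76 and 0.83 in spleen-primed cells. The summed FPKM of the large subunit over that of the small one was 1.85 ± 0.0296 in MLN-primed, 1.82 ± 0.0284 in spleen-primed and 1.87 ± 0.0713 in naive libraries, ranges that overlap between all 3 groups.

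**Figure D1:**
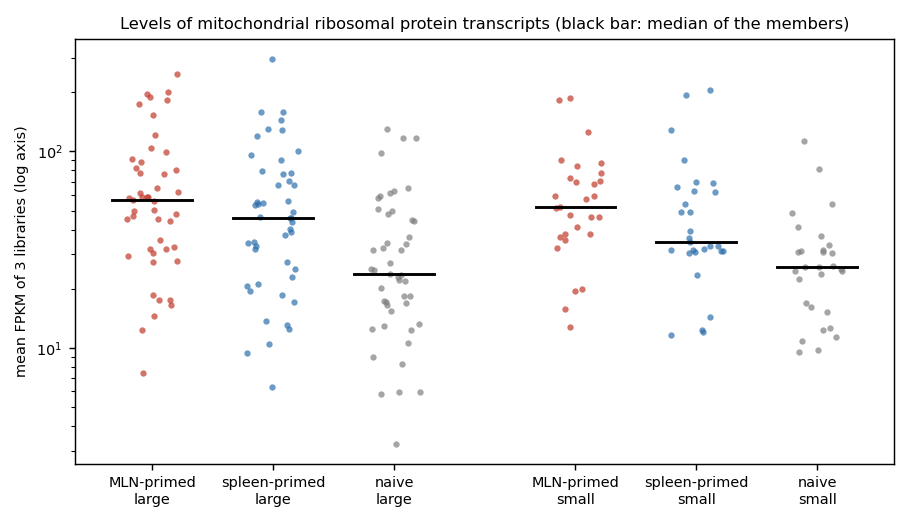
Mean FPKM of 3 libraries (log axis) for each of the 47 large-subunit and 29 small-subunit genes in MLN-primed, spleen-primed and naive cells; the black bar is the median of those gene means. The medians of both primed groups lie above that of naive cells in both subunits, and the naive means of the large subunit run from 3.22 to 129.7 FPKM.

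The order of levels was led by genes with bacterial counterparts. Mrpl33, of the large subunit, had the highest mean over all libraries, 220.6 FPKM, followed by Mrps16 at 169.0 and Mrps21 at 152.9 FPKM, both of the small subunit. Mrpl33 had 279.2, 225.8 and 241.1 FPKM in MLN-primed libraries, 313.9, 300.3 and 275.6 in spleen-primed libraries, and 107.8, 138.3 and 103.6 in naive libraries. Every primed value of Mrpl33 was above every naive value, and the primed groups overlapped. The lowest were Mrpl17 at 5.65, Mrpl19 at 9.23 and Mrpl35 at 10.3 FPKM, all of the large subunit and with bacterial counterparts. Mrpl17 had 8.32, 6.88 and 7.12 FPKM in MLN-primed, 6.48, 6.91 and 5.47 in spleen-primed and 2.98, 3.03 and 3.66 in naive libraries. It was the lowest of the 76 in each group. Mrpl30 ranked highest of the 76 in naive cells, and 12 and 11 in MLN-primed and spleen-primed cells. The longest annotated transcripts of Mrpl33, Mrps16 and Mrps21 have 478, 2572 and 405 bases. Those of Mrpl17, Mrpl19 and Mrpl35 have 7300, 5000 and 3721 bases, and the part of length in this order was not tested.

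The genes together made up 0.816 ± 0.0247% of all FPKM in MLN-primed, 0.683 ± 0.0137% in spleen-primed and 0.372 ± 0.00913% in naive libraries (SD, n = 3 each). The large subunit made up 0.530 ± 0.0188% in MLN-primed, 0.441 ± 0.00647% in spleen-primed and 0.242 ± 0.00325% in naive libraries. The small subunit made up 0.286 ± 0.00604%, 0.242 ± 0.00726% and 0.130 ± 0.00621% in the same order of groups. The 3 groups did not overlap in either subunit. The ribosomal proteins of the cytosol were highest in naive cells, and the primed groups overlapped: 86 such genes held 27.1 ± 1.73% of all FPKM in MLN-primed, 26.2 ± 1.40% in spleen-primed and 46.4 ± 2.11% in naive libraries. FPKM are relative to the library, so an abundant group that differs shifts the values of all other genes. Of the FPKM outside cytosolic ribosomal proteins, the mitochondrial ones were 1.12 ± 0.0612% in MLN-primed, 0.926 ± 0.0352% in spleen-primed and 0.694 ± 0.0106% in naive libraries, and the order of the groups was the same. In bulk samples, a change in the share of cells and a change in RNA per cell cannot be told apart.

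**Figure D2:**
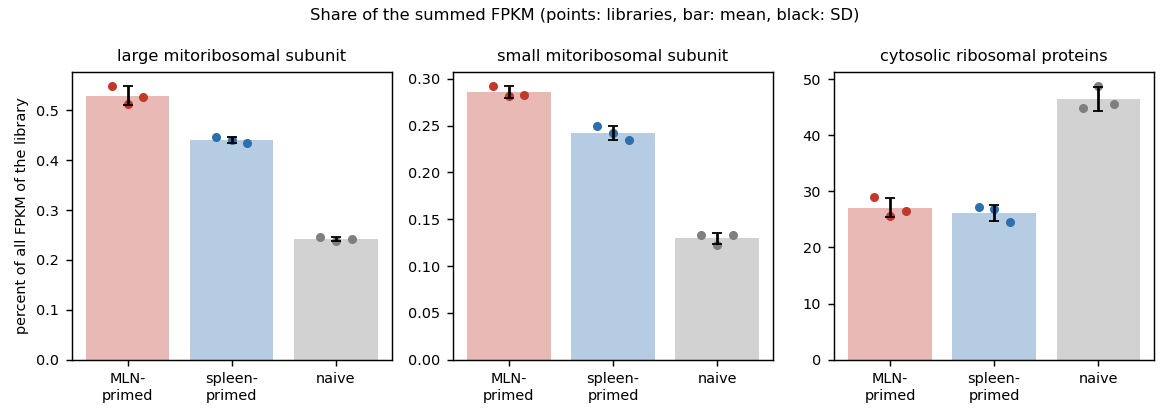
Percent of all FPKM in each library held by large-subunit, small-subunit and cytosolic ribosomal protein genes (points: libraries 1 to 3; bars: mean of 3; black: SD). Both mitochondrial subunits are highest in MLN-primed cells, at 0.530% and 0.286%, and the cytosolic proteins are highest in naive cells, at 46.4%.

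Against naive cells, nearly all genes of both subunits were higher in MLN-primed cells. Of the 76 genes, 72 were higher and 2 were lower, beside 45.5% of all tested genes higher and 33.2% lower in the same comparison. The large subunit had 44 of 47 higher and the 2 lower ones, and the small subunit 28 of 29 higher. The median difference was 1.10 in log2(FPKM + 1), 1.09 for the large and 1.10 for the small subunit, where all tested genes had a median of 0.15. A log2 difference over 1 was reached by 25 large-subunit and 16 small-subunit genes.

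Against naive cells, spleen-primed cells had 71 of the 76 genes higher and 3 lower, beside 43.1% of tested genes higher and 32.7% lower. The large subunit had 44 of 47 higher and 2 lower, and the small subunit 27 of 29 higher and 1 lower. The median log2 difference was 0.79, with 0.76 for the large and 0.83 for the small subunit and 0.10 over all tested genes. A difference over 1 was reached by 13 large-subunit and 6 small-subunit genes. The 2 comparisons share the naive libraries, so their values stand side by side and are not independent. With FPKM rescaled to the total outside cytosolic ribosomal proteins, an alternative chosen after seeing the data, 66 genes were higher and 4 lower in MLN-primed cells, and 48 were higher and 7 lower in spleen-primed cells. The median log2 differences were then 0.74 in MLN-primed and 0.41 in spleen-primed cells, where all tested genes had medians of -0.17 and -0.25. The share of all tested genes higher or lower under this scaling was not counted.

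**Figure D3:**
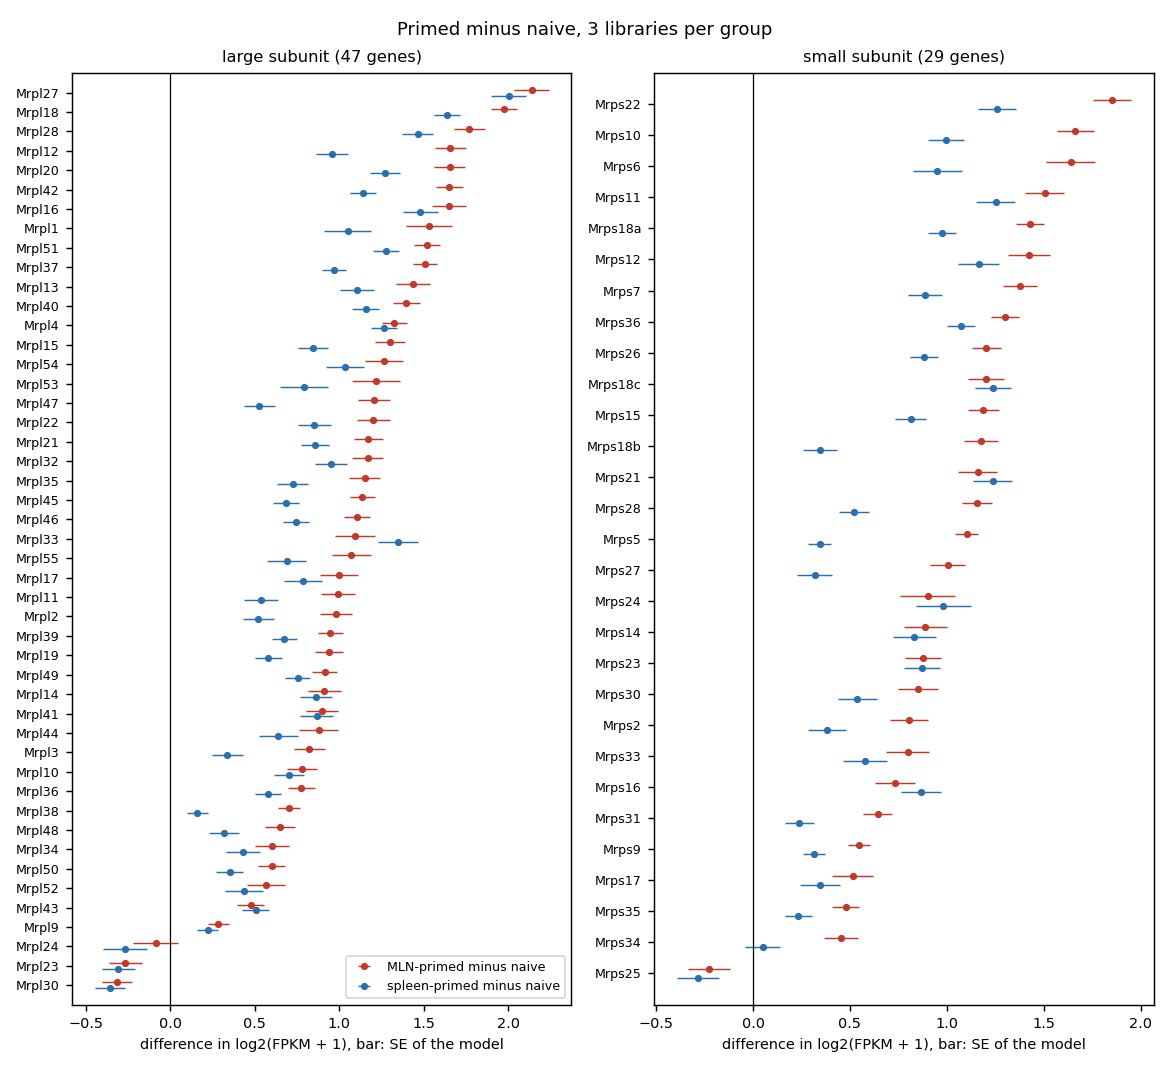
Difference from naive in log2(FPKM + 1) for each large-subunit (left) and small-subunit (right) gene, MLN-primed in red and spleen-primed in blue, with the standard error of the limma model. Most points lie right of 0, with Mrpl27 and Mrps22 at the top, while Mrpl30, Mrpl23, Mrpl24 and Mrps25 lie left of 0 for both primed groups.

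Among large-subunit genes the largest difference was that of Mrpl27, whose bacterial counterpart reaches into the peptidyl transferase centre, where peptide bonds are made. Mrpl27 lies on chromosome 11 from 94653767 to 94660089, plus strand (GRCm38). It had 108.4, 90.9 and 99.7 FPKM in MLN-primed, 87.2, 95.3 and 88.9 in spleen-primed, and 23.6, 18.6 and 23.6 in naive libraries. Every primed value was above every naive value, and the primed groups overlapped. The difference from naive was 2.14 ± 0.10 (SE) in MLN-primed (limma adjusted p = 2.7e-08) and 2.001 ± 0.10 in spleen-primed cells (limma adjusted p = 5.5e-08), ratios of mean FPKM of 4.54 and 4.12. The neighbouring gene Eme1, which encodes a subunit of a DNA repair nuclease and starts close by on the opposite strand, was itself higher in both primed groups, with means of 20.6 FPKM in MLN-primed, 16.3 in spleen-primed and 0.971 in naive cells. Exons of Eme1 cover 75 bases, or 7.61%, of the exons of Mrpl27.

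Mrpl18, counterpart of a bacterial protein that binds the smallest ribosomal RNA, had 214.0, 195.1 and 195.7 FPKM in MLN-primed, 168.0, 154.2 and 156.7 in spleen-primed and 55.1, 50.6 and 46.5 in naive libraries. The 3 groups did not overlap, and the ratio to naive was 3.97 in MLN-primed and 3.15 in spleen-primed cells. Mrpl28 had 100.3, 78.5 and 85.0 FPKM in MLN-primed, 74.8, 71.0 and 66.3 in spleen-primed and 25.1, 24.3 and 25.6 in naive libraries, again without overlap. Mrpl20, counterpart of a bacterial protein needed early in assembly of the large subunit, averaged 188.7 ± 21.4 FPKM in MLN-primed, 144.0 ± 5.44 in spleen-primed and 59.2 ± 4.62 in naive cells (SD, n = 3 each). Mrpl16, another large-subunit protein with a bacterial counterpart, averaged 55.8 ± 6.03 in MLN-primed, 49.4 ± 3.98 in spleen-primed and 17.1 ± 1.79 FPKM in naive cells, and its primed values overlapped. The log2 differences of these 4 genes from naive were 1.65 to 1.97 in MLN-primed and 1.27 to 1.64 in spleen-primed cells.

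Mrpl12 is the counterpart of the bacterial stalk protein that recruits translation factors, and its human form also binds the mitochondrial RNA polymerase. It lies on chromosome 11 from 120484613 to 120489065, plus strand. Mrpl12 had 207.4, 171.7 and 210.0 FPKM in MLN-primed, 126.7, 121.8 and 112.0 in spleen-primed, and 56.4, 63.8 and 64.0 in naive libraries. The 3 groups did not overlap. The difference from naive was 1.66 ± 0.09 in MLN-primed (limma adjusted p = 9.1e-08) and 0.96 ± 0.09 in spleen-primed cells (limma adjusted p = 6.78e-06).

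Among small-subunit genes the largest difference was that of Mrps22, a protein found only in mitochondrial ribosomes that is mutated in an inherited human mitochondrial disease. Mrps22 lies on chromosome 9 from 98588730 to 98601660, minus strand. It had 52.7, 43.5 and 45.9 FPKM in MLN-primed, 33.2, 30.3 and 29.3 in spleen-primed, and 13.9, 11.3 and 11.97 in naive libraries. The groups did not overlap, and the differences from naive were 1.85 ± 0.10 in MLN-primed (limma adjusted p = 5.93e-08) and 1.26 ± 0.10 in spleen-primed cells (limma adjusted p = 1.34e-06). Mrps10 followed with 39.3, 36.5 and 38.0 FPKM in MLN-primed, 23.02, 24.3 and 23.2 in spleen-primed, and 9.58, 11.8 and 12.7 in naive libraries. Mrps6 had 55.1, 50.1 and 49.9 FPKM in MLN-primed, 34.9, 32.1 and 28.3 in spleen-primed, and 19.7, 13.9 and 14.6 in naive libraries, and neither Mrps10 nor Mrps6 had overlapping groups. Mrps11 averaged 37.8 ± 4.26 FPKM in MLN-primed, 31.6 ± 3.17 in spleen-primed and 12.6 ± 0.766 in naive cells. These 3 have bacterial counterparts. Mrps12, whose bacterial counterpart lies at the decoding centre and governs accuracy, averaged 84.2 ± 7.66 FPKM in MLN-primed, 70.2 ± 6.62 in spleen-primed and 30.8 ± 3.54 in naive cells, with differences from naive of 1.42 and 1.17 in the MLN-primed and spleen-primed cells.

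Few genes did not follow, and 3 of the 5 smallest in the large subunit were lower than naive or passed no test. Mrpl30 lies on chromosome 1 from 37890477 to 37898535, plus strand, and has a bacterial counterpart. It had 118.1, 97.8 and 97.8 FPKM in MLN-primed, 105.2, 102.5 and 95.1 in spleen-primed, and 123.4, 139.5 and 126.3 in naive libraries. Every primed value was below every naive value. The difference was -0.31 ± 0.09 in MLN-primed (limma adjusted p = 0.00832) and -0.36 ± 0.09 in spleen-primed cells (limma adjusted p = 0.00415), and no exon of a neighbour on the opposite strand overlaps the gene.

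Mrpl23, whose bacterial counterpart sits at the exit of the peptide tunnel, had 93.9, 72.8 and 79.0 FPKM in MLN-primed, 80.5, 80.8 and 76.2 in spleen-primed, and 99.0, 106.7 and 89.2 in naive libraries. The MLN-primed and naive values overlapped, and the spleen-primed values were below the naive ones. The difference was -0.26 ± 0.10 in MLN-primed (limma adjusted p = 0.0321) and -0.31 ± 0.10 in spleen-primed cells (limma adjusted p = 0.0177). The MLN-primed call was lost without naive 1, naive 2, MLN-primed 2 or MLN-primed 3, with limma adjusted p of 0.0742, 0.115, 0.127 and 0.0858, and the spleen-primed call without naive 2, at 0.0687.

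Mrpl24, whose bacterial counterpart also lies by the tunnel exit, passed in none of the 3 comparisons on the deposited scale. It had 69.0, 55.1 and 60.4 FPKM in MLN-primed, 59.7, 56.8 and 46.2 in spleen-primed, and 59.5, 77.1 and 60.0 in naive libraries, and all groups overlapped. The next smallest, Mrpl9 and Mrpl43, were higher in both primed groups. Mrpl9 averaged 58.7 ± 1.15 FPKM in MLN-primed, 56.2 ± 2.19 in spleen-primed and 48.0 ± 1.96 in naive cells, and Mrpl43 45.2 ± 2.35, 46.3 ± 4.18 and 32.2 ± 1.39 in the same order of groups. With the length trend removed and under median-of-ratios scaling, Mrpl9 passed in neither primed group. Under quantile normalisation and under scaling outside cytosolic ribosomal proteins, the differences of Mrpl9 from naive turned negative. They were -0.20 and -0.07 in MLN-primed and -0.21 and -0.17 in spleen-primed cells. The quantile values passed as lower in MLN-primed and spleen-primed cells (limma adjusted p = 0.0148 and 0.0134). Under scaling outside cytosolic ribosomal proteins Mrpl9 passed as lower only in spleen-primed cells (limma adjusted p = 0.0252). Under both of these settings Mrpl43 passed in neither primed group, with 0.06 and 0.13 in MLN-primed cells (limma adjusted p = 0.5 and 0.128). Mrpl24 passed as lower in both primed groups, at -0.61 and -0.44 in MLN-primed and -0.72 and -0.66 in spleen-primed cells. Mrpl24 also passed as lower in both with the length trend removed, and in spleen-primed cells under median-of-ratios scaling.

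Of the small subunit, Mrps25 had 12.2, 12.8 and 13.4 FPKM in MLN-primed, 11.8, 12.2 and 12.9 in spleen-primed, and 17.0, 12.6 and 16.2 in naive libraries. Naive 2 lay among the primed values. The difference was -0.23 ± 0.11 in MLN-primed, which did not pass (limma adjusted p = 0.0738), and -0.28 ± 0.11 in spleen-primed cells (limma adjusted p = 0.034). That call was lost without naive 1, naive 3, spleen-primed 1 or spleen-primed 2, with limma adjusted p of 0.0801 to 0.12, while without naive 2 the MLN-primed difference passed, at -0.35 and 0.00323. With the length trend removed the differences of Mrps25 were 0.01 in MLN-primed and -0.05 in spleen-primed cells, and neither passed, while under median-of-ratios, quantile and cytosolic-protein scaling both passed as lower. Exons of Nr2c2, a nuclear receptor gene on the opposite strand, cover 69.8% of the exon bases of Mrps25. Nr2c2 itself was lower in both primed groups, with differences of -0.79 in MLN-primed and -0.73 in spleen-primed cells.

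Mrps34 passed in MLN-primed but not in spleen-primed cells against naive. It had 52.2, 40.6 and 45.5 FPKM in MLN-primed, 32.6, 35.8 and 34.8 in spleen-primed, and 32.95, 33.6 and 33.1 in naive libraries. The MLN-primed values were above all others, while the spleen-primed and naive values overlapped. The difference from naive was 0.45 ± 0.09 in MLN-primed (limma adjusted p = 0.000885) and 0.05 ± 0.09 in spleen-primed cells (limma adjusted p = 0.631), and the primed groups themselves differed by 0.41 ± 0.09 (limma adjusted p = 0.0074). Exons of Mapk8ip3 on the opposite strand cover 63.4% of the exon bases of Mrps34. Which primed group differed from naive depended on the scaling. Under quantile normalisation, with the length trend removed and under scaling outside cytosolic ribosomal proteins, the MLN-primed difference of Mrps34 was 0.03, 0.12 and 0.10 and no longer passed (limma adjusted p = 0.752, 0.183 and 0.268). The spleen-primed difference of Mrps34 was then -0.31, -0.27 and -0.34 and passed as lower than naive (limma adjusted p = 0.00881, 0.00966 and 0.00357).

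Mrps35 and Mrps9 were higher in both primed groups by smaller steps, 0.48 and 0.55 in MLN-primed and 0.23 and 0.32 in spleen-primed cells, and the spleen-primed differences turned negative under scaling outside cytosolic ribosomal proteins, at -0.15 and -0.07. Mrps17 was higher by 0.51 in MLN-primed cells. The MLN-primed calls of Mrps17 and Mrps35 were lost under quantile normalisation, at 0.13 and 0.08 (limma adjusted p = 0.27 and 0.35), and under scaling outside cytosolic ribosomal proteins, at 0.17 and 0.13 (limma adjusted p = 0.132 and 0.0967).

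**Figure D4:**
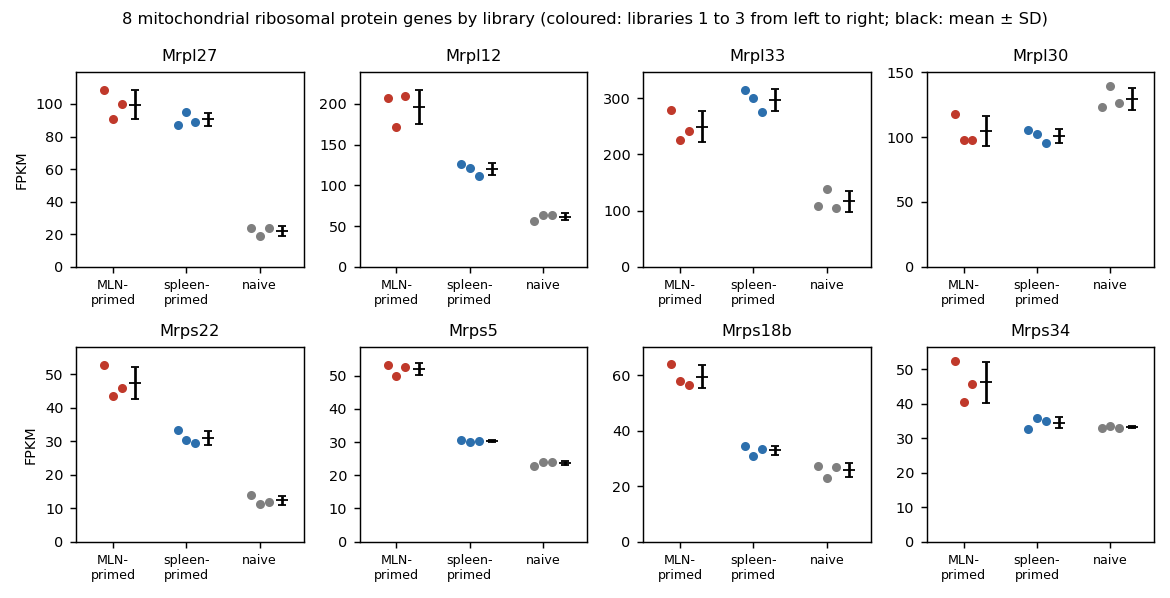
FPKM in each library for 8 genes, MLN-primed (red), spleen-primed (blue) and naive (grey), with libraries 1 to 3 from left to right in each group and the mean ± SD in black. Mrpl27, Mrpl12, Mrps22, Mrps5 and Mrps18b are higher in primed cells, Mrps34 is at 40.6 to 52.2 FPKM in MLN-primed cells, above all other libraries, and Mrpl30 is lower in both primed groups.

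Overlap with a neighbour on the other strand was common. By the GENCODE M21 annotation, 27 of the 76 genes have exon bases covered by exons of a gene on the opposite strand. No source used here states whether quantification used strand, so reads of both genes cannot be told apart there. Of the 49 genes without such overlap, 47 were higher and 2 lower in each primed group against naive, with medians of 1.14 in MLN-primed and 0.85 in spleen-primed cells. Of the 27 with overlap, 25 were higher and 0 lower in MLN-primed, and 24 higher and 1 lower in spleen-primed cells, with medians of 0.94 and 0.64. Over all tested genes, 45.5% were higher and 33.2% lower in MLN-primed, and 43.1% higher and 32.7% lower in spleen-primed cells. Their medians were 0.15 and 0.10. The 8 genes with the largest covered share are Mrps25 at 69.8%, Mrps34 at 63.4%, Mrpl19 at 36.0%, Mrpl43 at 33.4%, Mrps18b at 30.5%, Mrpl24 at 26.3%, and Mrps27 and Mrpl47 at 24.2% of their exon bases. Mrps6, Mrps24, Mrpl33, Mrps18c and Mrpl51, all among the 49, share exon bases with a gene on the same strand. Strand cannot tell the reads of both genes apart there. In addition, 24 of the 76 genes, 31.6%, start within 500 bases of a protein-coding gene that runs the other way, against 15.8% of 9412 tested protein-coding genes. Mrps11 and Mrpl46 are such a pair, and the differences of Mrpl46 from naive were 1.10 in MLN-primed and 0.74 in spleen-primed cells.

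Between the primed groups, 45 of the 76 genes were higher in MLN-primed cells, 0 were lower and 31 did not pass, beside 17.3% of all tested genes higher and 13.1% lower. The large subunit had 27 of 47 higher and the small subunit 18 of 29. The median difference was 0.29, with 0.27 for the large and 0.31 for the small subunit, against 0.03 over all tested genes. In 48 genes, 29 large and 19 small, every MLN-primed value lay above every spleen-primed value, which held for 25.1% of all tested genes. In all, 70 of the 76 differences were above 0. Of the 71 genes higher than naive in both primed groups, 44 were also higher in MLN-primed cells than in spleen-primed ones and 27 did not pass.

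The count of 45 was smaller when any 1 library was left out. A fit with 1 library fewer can pass fewer genes, and that part was not tested. The share of all tested genes in these fits was not counted. Leaving out MLN-primed 1 or spleen-primed 3 gave 30 in each case, and leaving out any other library gave 32 to 43, with 0 lower throughout. The large-subunit count of 27 was 15 without MLN-primed 1, 15 without spleen-primed 3 and 17 without spleen-primed 2, each beside 15 small-subunit genes. Median-of-ratios scaling gave 29 genes, 15 large and 14 small. MLN-primed 1 was the highest of its group for 69 of the 76 genes, and spleen-primed 1 for 46. MLN-primed 1 and spleen-primed 3 are also the libraries with the lowest and highest slope on transcript length, and the 76 genes have a median transcript of 1224.5 bases, against 2885 for tested genes. With both left out together, an alternative chosen after seeing the data, 30 were higher and 4 lower (Mrpl33, Mrps16, Mrps21 and Mrps24). With the length trend removed from each library, also chosen after seeing the data, 47 were higher and 1, Mrpl33, was lower. The cytosolic ribosomal proteins had 3 of 84 tested genes higher and 0 lower in this comparison, with a median of 0.06.

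The largest difference between the primed groups was that of Mrps18b, one of 3 related genes whose proteins resemble 1 protein of the bacterial small subunit. Mrps18b lies on chromosome 17 from 35910379 to 35916389, minus strand. It had 64.3, 57.8 and 56.6 FPKM in MLN-primed, 34.4, 31.0 and 33.4 in spleen-primed, and 27.4, 22.9 and 27.1 in naive libraries. The 3 groups did not overlap, and the MLN-primed minus spleen-primed difference was 0.83 ± 0.09 (limma adjusted p = 0.000166), a ratio of 1.81. Its relatives had smaller differences. Mrps18a, whose protein lies in the large subunit of mammalian mitochondrial ribosomes, averaged 67.9 ± 2.68 FPKM in MLN-primed, 49.4 ± 3.77 in spleen-primed and 24.6 ± 0.793 in naive cells, a difference of 0.45 ± 0.07 between the primed groups (limma adjusted p = 0.00144). Mrps18c averaged 125.5 ± 10.3 FPKM in MLN-primed, 128.9 ± 15.7 in spleen-primed and 53.9 ± 2.08 in naive cells, a difference of -0.03 ± 0.09 between the primed groups (limma adjusted p = 0.82).

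Mrps5, whose bacterial counterpart lines the entry path of the message, had 53.4, 50.02 and 52.7 FPKM in MLN-primed, 30.6, 30.0 and 30.4 in spleen-primed, and 22.9, 24.0 and 24.1 in naive libraries. It lies on chromosome 2 from 127587222 to 127606829, plus strand. The groups did not overlap and varied little within themselves, and the primed groups differed by 0.76 ± 0.06 (limma adjusted p = 3.53e-05), a ratio of 1.72. Mrps27, found only in mitochondrial ribosomes, had 21.04, 18.2 and 20.8 FPKM in MLN-primed, 12.4, 11.4 and 12.3 in spleen-primed, and 8.54, 9.72 and 10.2 in naive libraries. The primed groups differed by 0.69 ± 0.09 (limma adjusted p = 0.000545). Against naive, Mrps27, Mrps18b and Mrps5 differed by 1.004, 1.18 and 1.10 in MLN-primed cells and by 0.32, 0.34 and 0.34 in spleen-primed cells. Under scaling outside cytosolic ribosomal proteins none of these 3 passed in spleen-primed cells against naive.

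The other genes with the largest differences between the primed groups were Mrpl12 at 0.70 ± 0.09, Mrps6 at 0.69 ± 0.13, Mrpl47 at 0.68 ± 0.09, Mrps10 at 0.67 ± 0.10, Mrps28 at 0.64 ± 0.08, Mrps22 at 0.60 ± 0.10 and Mrpl38 at 0.54 ± 0.06. Their limma adjusted p-values were 0.000329 to 0.00307. Mrpl47, counterpart of a bacterial protein near the tunnel exit, had 35.04, 29.8 and 30.5 FPKM in MLN-primed, 21.4, 19.1 and 17.9 in spleen-primed, and 14.2, 12.5 and 12.8 in naive libraries. Mrps28 had 62.8, 55.4 and 53.7 FPKM in MLN-primed, 38.6, 35.04 and 35.8 in spleen-primed, and 24.7, 26.5 and 24.1 in naive libraries. Mrpl38, found only in mitochondrial ribosomes, had 29.1, 26.4 and 27.4 FPKM in MLN-primed, 18.8, 18.9 and 18.3 in spleen-primed, and 16.4, 16.7 and 16.7 in naive libraries. None of these 3 had overlapping groups. The spleen-primed difference of Mrpl38 from naive, 0.16 ± 0.06, passed only narrowly (limma adjusted p = 0.0424). The call of Mrpl38 was lost when any library other than MLN-primed 1 was left out, with adjusted p of 0.0572 to 0.11, and with the library number as a block (limma adjusted p = 0.0512). Under scaling outside cytosolic ribosomal proteins, Mrpl38 passed as lower than naive in spleen-primed cells, at -0.22 (limma adjusted p = 0.00826). Of the 10 genes with the largest differences, 7 are small-subunit genes, and 12 of the 76 exceeded 0.5.

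**Figure D5:**
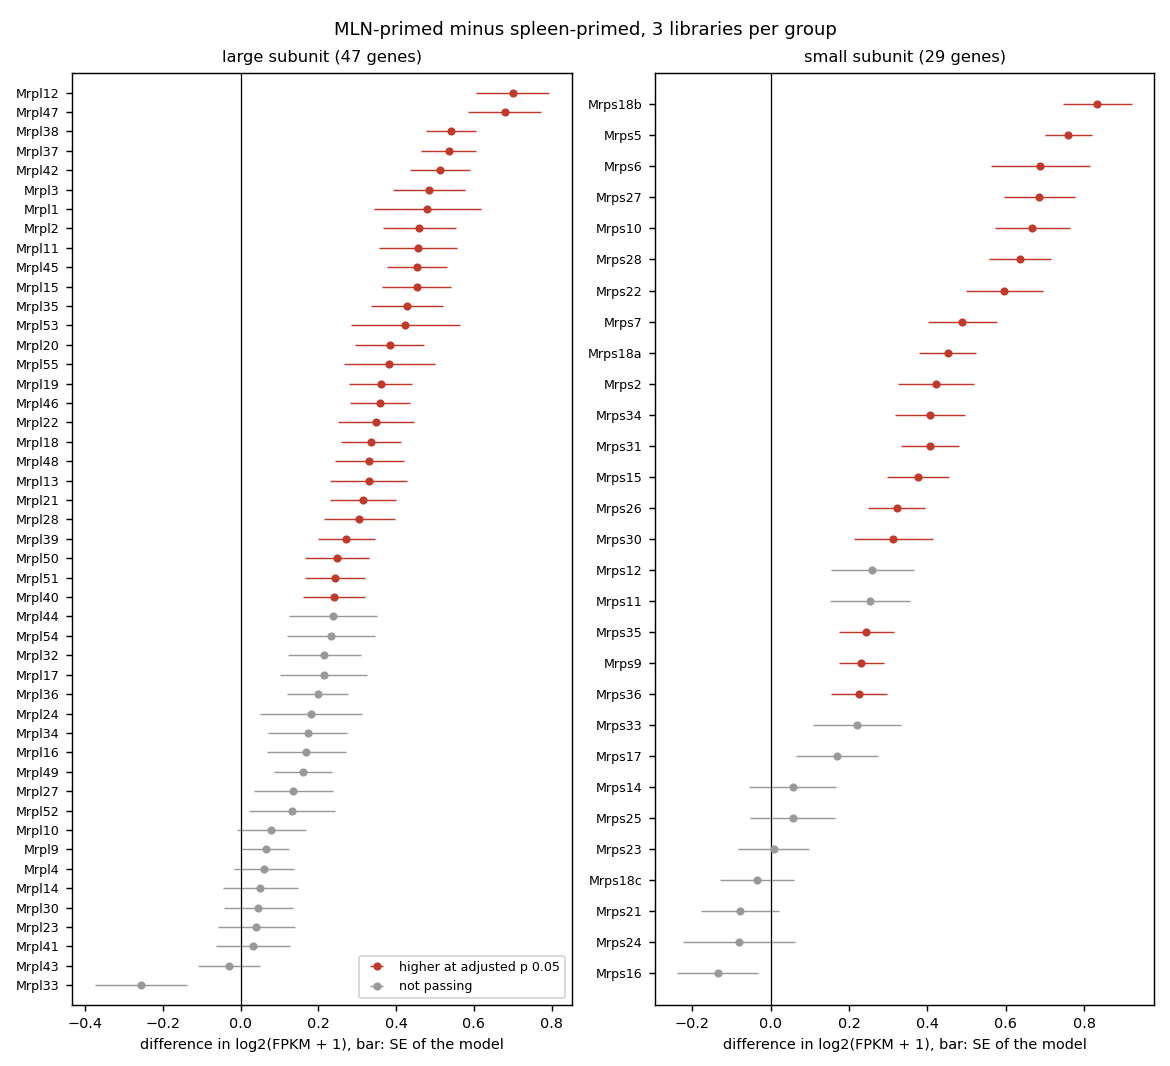
MLN-primed minus spleen-primed difference in log2(FPKM + 1) for each large-subunit (left) and small-subunit (right) gene, with the standard error of the limma model; red points passed at an adjusted p of 0.05 and grey points did not. Red points number 27 of 47 on the left and 18 of 29 on the right, and the 6 points left of 0 are all grey.

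The 6 genes with a difference below 0 were Mrpl33 at -0.26 ± 0.12, Mrps16 at -0.14 ± 0.10, Mrps24 at -0.08, Mrps21 at -0.08, Mrps18c at -0.03 and Mrpl43 at -0.03, and none passed. These include the 3 genes with the highest levels. Mrps16 had 204.6, 170.8 and 187.7 FPKM in MLN-primed, 217.4, 221.4 and 181.1 in spleen-primed, and 103.0, 122.6 and 112.2 in naive libraries. Mrps21 had 204.8, 174.7 and 170.6 FPKM in MLN-primed, 221.1, 188.4 and 172.5 in spleen-primed, and 83.1, 81.8 and 79.1 in naive libraries. In both, the primed groups overlapped and lay above the naive values.

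Both structural classes moved in each comparison, in which 45.5% of all tested genes were higher in MLN-primed and 43.1% in spleen-primed cells against naive, and 17.3% were higher between the primed groups. Of 43 genes with a bacterial counterpart, 40 were higher and 2 lower in each primed group against naive, with medians of 1.15 in MLN-primed and 0.85 in spleen-primed cells, and 22 were higher in MLN-primed cells than in spleen-primed ones. Of 27 found only in mitochondria, 26 were higher and 0 lower in MLN-primed, 25 higher and 1 lower in spleen-primed cells, with medians of 0.90 and 0.68, and 18 were higher in MLN-primed cells than in spleen-primed ones. The 9 small-subunit genes found only in mitochondria had a median of 0.80 in MLN-primed and 0.32 in spleen-primed cells against naive.

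The symbols do not always match the structure. Mrps30 and Mrps18a encode proteins placed in the large subunit of mammalian mitochondrial ribosomes, and the protein of Mrps36 is now known as a subunit of the alpha-ketoglutarate dehydrogenase complex. Mrps30 had 46.1, 39.2 and 38.7 FPKM in MLN-primed, 35.2, 35.2 and 28.8 in spleen-primed, and 23.6, 21.1 and 22.5 in naive libraries, without overlap between groups. Mrps36 had 82.4, 76.5 and 73.8 FPKM in MLN-primed, 69.4, 66.3 and 63.0 in spleen-primed, and 32.3, 28.8 and 31.6 in naive libraries, also without overlap. Both passed between the primed groups, at 0.31 (limma adjusted p = 0.0407) and 0.23 (limma adjusted p = 0.0404), but not when any one of naive 3 and the 6 primed libraries was left out, with adjusted p of 0.0516 to 0.119. With Mrps30 and Mrps18a counted in the large subunit and Mrps36 left out, the large-subunit and small-subunit medians against naive were 1.09 and 1.054 in MLN-primed and 0.76 and 0.82 in spleen-primed cells, and 29 of 49 large-subunit and 15 of 26 small-subunit genes were higher in MLN-primed cells than in spleen-primed ones. Over all tested genes, 17.3% were higher in this last comparison.

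Of 6 mitochondrial ribosomal proteins with other names, 5 were higher in MLN-primed and 6 in spleen-primed cells against naive, beside 45.5% and 43.1% of all tested genes. Between the primed groups, 4 were higher in MLN-primed cells, beside 17.3% of all tested genes. These 4 were Ptcd3, an RNA-binding protein of the small subunit, at 0.67, Gadd45gip1 at 0.53, Chchd1 at 0.51 and Dap3, a GTP-binding protein of the small subunit, at 0.34. Aurkaip1 averaged 99.3 FPKM in MLN-primed, 99.9 in spleen-primed and 44.0 in naive cells and did not pass between the primed groups. Ict1, a peptidyl-tRNA hydrolase built into the large subunit that releases stalled chains, averaged 74.4 FPKM in MLN-primed, 94.5 in spleen-primed and 68.2 in naive cells. It was lower in MLN-primed cells, against spleen-primed cells, by a log2 difference of -0.35.

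Of 13 mitochondrial translation factors, 11 were higher in MLN-primed and 9 in spleen-primed cells against naive, 9 were higher in MLN-primed cells than in spleen-primed ones, and 0 were lower in any comparison. The shares over all tested genes were 45.5%, 43.1% and 17.3%. Tsfm, the elongation factor that recharges Tufm, averaged 45.1 FPKM in MLN-primed, 29.2 in spleen-primed and 11.5 in naive cells. Tufm, which brings aminoacyl-tRNA to the ribosome, averaged 116.1, 82.2 and 38.7 FPKM in the same order of groups, and Gfm1, which drives translocation, 41.0, 27.8 and 13.5.

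Of 25 assembly factors, 14 were higher and 3 lower in MLN-primed, and 7 higher and 4 lower in spleen-primed cells against naive, while 10 were higher and 0 lower in MLN-primed cells than in spleen-primed ones. The counts higher against naive are thus close to the 45.5% of all tested genes in MLN-primed and below the 43.1% in spleen-primed cells, while 40.0% were higher between the primed groups, beside 17.3%. Ddx28, an RNA helicase needed for the large subunit, averaged 13.5 FPKM in MLN-primed, 16.9 in spleen-primed and 5.66 in naive cells. Mrm1, a methyltransferase of the large ribosomal RNA, averaged 6.34, 4.91 and 11.7 FPKM in the same order and was lower in both primed groups than in naive. Of 14 genes of mitochondrial transcription and RNA handling, 7 were higher in MLN-primed cells, and 4 were higher and 2 lower in spleen-primed cells against naive, with 6 higher in MLN-primed cells than in spleen-primed ones. Against naive these counts are again close to the share of all tested genes in MLN-primed and, at 28.6%, below it in spleen-primed cells.

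Among the factors whose letters were searched in the promoters, Nrf1 averaged 24.1 FPKM in MLN-primed, 24.4 in spleen-primed and 13.5 in naive cells, and Gabpa 23.2, 21.2 and 14.7 in the same order. Both were higher in both primed groups than in naive, and neither passed between the primed groups. Yy1 averaged 39.1, 34.5 and 40.4 FPKM in the same order and passed in no comparison. Myc averaged 24.2 FPKM in MLN-primed, 14.4 in spleen-primed and 32.3 in naive cells. It was lower in both primed groups than in naive, and higher in MLN-primed cells than in spleen-primed ones by 0.72. Pprc1, a coactivator that acts with NRF1, was higher in MLN-primed cells than in spleen-primed ones by 0.65, with 8.36 FPKM in MLN-primed, 5.01 in spleen-primed and 9.66 in naive cells. Its primed groups overlapped (limma adjusted p = 0.0394), and it was lower than naive in spleen-primed cells, at -0.86. Max and Ppargc1b were lower in both primed groups. Of 9 factors and coactivators tested, 3 were higher and 3 lower in MLN-primed, and 3 higher and 4 lower in spleen-primed cells against naive. That is 33.3% higher in each, beside 45.5% and 43.1% of all tested genes.

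The summed markers of antigen-presenting, myeloid, and epithelial and stromal cells lay lower in both primed groups than in naive libraries, while B cell and red cell sums of MLN-primed and naive libraries overlapped. The antigen-presenting genes H2-Aa, H2-Ab1, Cd74 and Flt3 summed to 2.71 to 3.49 FPKM in MLN-primed, 2.52 to 6.67 in spleen-primed and 80.6 to 144.4 in naive libraries. Flt3 was listed at 0 in all MLN-primed libraries. Epithelial and stromal markers (Epcam, Krt8, Col1a1 and Pecam1) summed to 2.76 to 3.71 FPKM in MLN-primed, 3.31 to 4.56 in spleen-primed and 37.7 to 44.4 in naive libraries. Most of these sums was the vessel and leukocyte gene Pecam1, with 2.005 to 2.87 FPKM in MLN-primed, 2.84 to 4.20 in spleen-primed and 36.96 to 43.55 in naive libraries. The epithelial gene Epcam was not lower in MLN-primed than in naive libraries. It had 0.732 to 0.909 FPKM in MLN-primed, 0.349 to 0.457 in spleen-primed and 0.671 to 0.829 in naive libraries. Krt8 was listed at 0 in every library. The 4 B cell markers summed to 11.2 to 14.5 FPKM in MLN-primed, 6.43 to 8.26 in spleen-primed and 11.1 to 14.9 in naive libraries, and the 4 myeloid markers to 0.146 to 0.230, 0.470 to 2.21 and 2.44 to 10.8. Red cell genes ranged from 0.346 to 60.1 FPKM over the MLN-primed, 2.93 to 30.1 over the spleen-primed and 8.14 to 56.8 over the naive libraries, and Cd4 was at most 0.269 FPKM in any library. Their part in the differences was not tested.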

How the data were processed

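Per the labels' protocols, RNA was isolated with an RNeasy Plus Micro kit and libraries were of the TruSeq Stranded mRNA type. The deposited values are FPKM per gene and library, made by the authors with TopHat and Cufflinks; the genome was mm10, per the submitters' processing notes. No source used here states versions, filters or whether strand was used. FPKM do not keep read numbers, so depth is unknown and counting error cannot be given. A second deposited table, identical to the first, was not used.

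Groups came from the treatment labels. Of 24067 rows, 131 without a symbol, 0.0479% of the FPKM, were left out. The 10185 genes that reached 1 FPKM in 3 or more libraries were fitted as log2(FPKM + 1), a scale that understates the change of low genes. limma 3.58.1 in R 4.3.3 (limma-trend, all 9 libraries) gave 3 contrasts tested two-sided, with p adjusted by Benjamini-Hochberg over all genes fitted, at 0.05. Groups share library numbers 1 to 3 in the labels, which do not say what a number stands for. Deviations of same-numbered spleen-primed and naive libraries from their group means correlated at 0.160, 0.116 and 0.236, all over 0.1, and a fit with the number as a block was set beside the main one. Differences are given with the standard error of the model, levels as mean ± SD, and ratios as ratios of mean FPKM. The model was tested on simulated data first. Python 3.11.15, numpy 2.4.6, pandas 2.3.3 and matplotlib 3.10.9 made the tables and figures. Gene positions, exon overlaps and transcript lengths came from GENCODE M21 on GRCm38, matched by symbol, and promoters from RefSeq on GRCm38.p6.

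The genes and the related lists were chosen with earlier results of these data known, so lists are described by counts and medians, with no list test. Genes named singly are the 5 largest and 5 smallest differences per subunit against naive, the 10 largest that passed between the primed groups, the 3 highest and 3 lowest levels, Mrpl12, Mrps12, Mrps30, Mrps36, the 3 Mrps18 genes and the 6 mitochondrial ribosomal proteins with other names. Mrps24, Mrpl46, Mrpl32, Mrpl36 and the related-list genes with values were named after their values were seen. The other settings tried were median-of-ratios scaling, quantile normalisation, a pseudocount of 0.1, a filter of 5 FPKM or none, a robust variance model or one without trend, a fit of only the groups compared, a replicate block, the loss of each library, and the subunit assignment by structure. Removal of a length trend, scaling outside cytosolic ribosomal proteins, and leaving out MLN-primed 1 and spleen-primed 3 together were added after seeing the data.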

Additional observations from a re-analysis of the deposited data

Results flagged for a closer look

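Mrps34 differed from naive by unequal amounts in the primed groups: against naive it was higher in MLN-primed cells, by 0.45 ± 0.09, and did not pass in spleen-primed cells, at 0.05 ± 0.09. The test of the difference itself, which is the contrast between the primed groups, gave 0.41 ± 0.09 on the log2(FPKM + 1) scale (limma adjusted p = 0.0074), with 3 of 3 MLN-primed values above all spleen-primed values. The contrast between the primed groups passed under every alternative run. The comparisons with naive did not keep their calls: under quantile normalisation, with the length trend removed and under scaling outside cytosolic ribosomal proteins, Mrps34 did not pass in MLN-primed cells, at 0.03, 0.12 and 0.10, and was lower than naive in spleen-primed cells, at -0.31, -0.27 and -0.34. Exons of Mapk8ip3 on the opposite strand cover 63.4% of the exon bases of Mrps34, and their part in the difference was not tested.

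In all, 45 of the 76 genes had a response against naive that differed between MLN-primed and spleen-primed cells by the same test, each with the larger response in MLN-primed cells, against 17.3% of all tested genes higher in MLN-primed cells. Groups had 3 libraries each, so no library was tested for standing apart within its group.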

How the results depend on the processing

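The counts kept their direction under most alternatives, and 62 genes were higher and 1, Mrpl30, lower than naive in MLN-primed cells under all 22 settings, 47 and 1 (again Mrpl30) in spleen-primed cells, and 29 were higher in MLN-primed cells than in spleen-primed ones. The cause of the changes that follow was not tested. Under median-of-ratios scaling the median difference was 0.93 in MLN-primed and 0.68 in spleen-primed cells against naive, and 29 genes, 15 of the large subunit, were higher in MLN-primed cells than in spleen-primed ones. Quantile normalisation gave medians of 0.73 and 0.49, 5 and 6 genes lower than naive in MLN-primed and spleen-primed cells, 17 large-subunit genes higher between the primed groups, and a large minus small median difference of 0.14 and 0.11, against -0.01 and -0.08. With the length trend removed, the medians were 0.87 and 0.60, and 1 gene was lower in MLN-primed cells than in spleen-primed ones. Scaling outside cytosolic ribosomal proteins gave medians of 0.74 and 0.41, 4 and 7 genes lower, and 16 small-subunit genes higher in spleen-primed cells. With no filter, and with only the groups compared, 1 gene was lower in MLN-primed cells than in naive. With MLN-primed 1 and spleen-primed 3 left out together, the median between the primed groups was 0.18, 15 large-subunit genes were higher and 4 genes lower, and the large minus small difference against naive in MLN-primed cells was -0.070. The structural assignment gave 0.039 for that difference.

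Leaving out 1 library at a time gave 1 to 2 genes lower in MLN-primed cells than in naive, 30 to 43 genes and 15 to 25 large-subunit genes higher in MLN-primed cells than in spleen-primed ones, and a large minus small difference of -0.070 to 0.036 in MLN-primed cells against naive. Of large-subunit genes, 17 were higher between the primed groups without spleen-primed 2, 15 without spleen-primed 3 and 15 without MLN-primed 1. Where an arm was left with 2 libraries, the model shared the spread of all groups.

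Changes of sign were followed only for genes named singly, in the comparisons that named them, so other genes may also have turned. Among those followed, differences from naive that turned negative were, under quantile normalisation, those of Ict1 (-0.43 in MLN-primed and -0.050 in spleen-primed cells), Mrpl9 (-0.20 and -0.21), and in spleen-primed cells Mrpl38 (-0.058), Mrps34 (-0.31), Mrps35 (-0.10) and Mrps9 (-0.045). With the length trend removed they were those of Ict1 (-0.28 in MLN-primed cells), and in spleen-primed cells Mrpl38 (-0.035) and Mrps34 (-0.27). Under scaling outside cytosolic ribosomal proteins they were those of Ict1 (-0.24) and Mrpl9 (-0.069) in MLN-primed cells, and in spleen-primed cells Mrpl9 (-0.17), Mrpl38 (-0.22), Mrps18b (-0.043), Mrps31 (-0.13), Mrps34 (-0.34), Mrps35 (-0.15) and Mrps9 (-0.074). Among these Mrpl and Mrps genes, Mrps34 passed as lower under each of these settings. Mrpl9 passed as lower in both primed groups under quantile normalisation. Under scaling outside cytosolic ribosomal proteins, Mrpl9 and Mrpl38 passed as lower in spleen-primed cells. The other negative values of Mrpl and Mrps genes listed here did not pass. Under median-of-ratios scaling the spleen-primed difference of Mrps34 from naive was also negative, at -0.07, and did not pass (limma adjusted p = 0.538).

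Same-numbered libraries met the pairing criterion, a correlation of deviations over 0.1 in every pair, for spleen-primed and naive cells, but not for the primed groups (0.64, -0.24 and 0.49) or for MLN-primed and naive cells (0.14, -0.24 and 0.12). With the replicate block, 46 genes were higher in MLN-primed cells than in spleen-primed ones, and 72 and 70 were higher than naive in MLN-primed and spleen-primed cells. Between spleen-primed and naive cells the block ended the call of Mrpl38, at 0.16 (limma adjusted p = 0.0512), and changed no other of the 76. Since FPKM keep no read numbers, limits set by depth could not be given.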
